A study of Homo sapiens with 16 samples.

Results

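The clustered histone genes are the gene copies on chromosomes 6, 1 and 12 that make most of the histone protein of a dividing cell. They were followed in the human lung adenocarcinoma cell line A549 through an epithelial to mesenchymal transition (EMT) induced with TGF-beta. The 16 libraries cover 0, 6, 12, 24, 36, 48, 72 and 96 h of TGF-beta with 2 libraries per time, replicates 1 and 2. Cells at 0 h served as the baseline of every later time, and cultures kept without TGF-beta to the later times were not analysed here. Genes were taken by symbol: of 89 symbols starting with HIST1H, HIST2H, HIST3H or HIST4H, 13 ending in PS and a digit were left out, and of the remaining 76, 63 reached at least 1 TPM (transcript abundance scaled to a fixed total in each library) in at least 2 libraries. These 63 of the 57773 genes in the tables, or of the 16967 genes past the same threshold, comprised 5 H1, 14 H2A, 19 H2B, 12 H3 and 13 H4 genes. Of the 19 H2B entries, 4 are pseudogenes in RefSeq (HIST2H2BB, HIST2H2BC, HIST2H2BD and HIST3H2BA), kept because the choice went by symbol. The HIST1 cluster on chromosome 6 held 45 of them, the HIST2 and HIST3 clusters on chromosome 1 held 14 and 3, and HIST4H4 on chromosome 12 was the only HIST4 gene.

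H2A, H2B, H3 and H4 build the protein core of the nucleosome, around which DNA is wound, and H1 binds the linker DNA outside it. Most clustered histone genes are replication-dependent: their mRNAs accumulate in S phase, when new DNA needs new nucleosomes, and are degraded when DNA synthesis stops. These mRNAs are unusual in that they end in a conserved stem-loop and not in a poly(A) tail. The stem-loop is bound by SLBP, and the U7 small nuclear RNP directs cleavage just after it. Some clustered genes are known also to give polyadenylated mRNAs from a downstream site, often in differentiating or resting cells, and 7 such genes were kept apart below (HIST1H1C, HIST1H2AC, HIST1H2BC, HIST1H2BD, HIST1H2BK, HIST2H2BE and HIST4H4).

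The threshold on TPM used the same values that are described below, so levels are given as a description. Of the 63 genes, 57 reached 1 TPM in all 16 libraries and 53 reached 5 TPM in all 16. HIST1H2BF and HIST1H3D passed through their 0 h libraries alone, so that being lower later was built into their selection. HIST1H2BF had 1.16 and 1.89 TPM at 0 h and at most 0.76 TPM later, and HIST1H1T, a testis-type H1 gene, peaked at 1.27 TPM. Just outside the threshold lay HIST1H2AD, with 2.20 TPM in 1 library at 0 h, HIST1H2BH with at most 0.96 TPM and HIST2H2BA with at most 0.94 TPM. HIST1H2AA and HIST1H4F were listed at 0 in all 16 libraries.

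The stem-loop was searched in the GENCODE release 29 transcripts of all genes as the letters GGCTCTTTTNAGNGCC on the transcript strand. It was found in 21 of the 63 genes, against 29 of 57133 genes with a transcript (0.0508%). The 3 forms found are shown because they are the element that sets this mRNA class apart, with the arms of the stem in capitals and the loop in lower case, written as DNA.
HIST1H2AI: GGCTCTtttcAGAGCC
HIST1H2BD: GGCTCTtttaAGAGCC
HIST1H2AG: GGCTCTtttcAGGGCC
The first form was in 15 of the genes and each of the others in 3. Both HIST1H2BC and HIST1H2BD, which are also on the polyadenylation list, held the second form, and HIST1H2AC and HIST2H2BE on that list held the first. A gene without a match only lacks these letters in its annotated transcript.

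Promoters were read from RefSeq (GRCh38.p14) as the 250 bases before and 50 bases after each annotated start, and 54 of the 63 genes had one. They were searched on both strands for the histone octamer element ATTTGCAT, bound by OCT1, for TATAAA, for CCAAT and for the E2F letters TTTGGCGC or TTTCGCGC. The octamer was in 8 of 13 H2A and 11 of 15 H2B promoters, in 1 of 10 H3 promoters and in 0 of 5 H1 and 0 of 11 H4 promoters, against 2.19% of 27305 promoters of all genes. CCAAT was in all 5 H1, 13 H2A, 15 H2B and 10 H3 promoters but in 2 of 11 H4 promoters, against 39.7% of all promoters. TATAAA was in 37 of the 54 promoters (3819 of the 27305 of all genes) and an E2F match in 12 (1.40% of all), of which 11 were H2A or H2B genes. The 3 promoters printed are those of HIST1H2BI, the gene with the largest fold change at 48 h, of HIST1H2AI, the H2A gene with the highest mean TPM among those past the test at 48 h, and of HIST1H4J, the most abundant H4 gene, whose promoter holds TATAAA alone of these elements. Matches are in capitals.
HIST1H2BI (RefSeq H2BC10, chr6:26272681-26272980, plus strand): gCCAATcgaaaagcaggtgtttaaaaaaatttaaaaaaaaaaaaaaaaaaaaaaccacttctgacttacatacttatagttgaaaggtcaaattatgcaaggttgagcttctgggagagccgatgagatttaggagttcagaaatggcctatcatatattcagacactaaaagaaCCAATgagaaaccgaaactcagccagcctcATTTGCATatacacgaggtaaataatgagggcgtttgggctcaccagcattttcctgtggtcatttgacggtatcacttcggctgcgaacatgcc
HIST1H2AI (RefSeq H2AC13, chr6:27807923-27808222, plus strand): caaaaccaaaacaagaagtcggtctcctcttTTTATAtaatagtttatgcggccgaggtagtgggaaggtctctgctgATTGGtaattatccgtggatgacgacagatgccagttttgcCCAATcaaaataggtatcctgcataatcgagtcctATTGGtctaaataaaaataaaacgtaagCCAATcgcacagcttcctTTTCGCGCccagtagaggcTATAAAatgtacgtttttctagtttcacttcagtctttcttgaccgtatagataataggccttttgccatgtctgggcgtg
HIST1H4J (RefSeq H4C11, chr6:27823842-27824141, plus strand): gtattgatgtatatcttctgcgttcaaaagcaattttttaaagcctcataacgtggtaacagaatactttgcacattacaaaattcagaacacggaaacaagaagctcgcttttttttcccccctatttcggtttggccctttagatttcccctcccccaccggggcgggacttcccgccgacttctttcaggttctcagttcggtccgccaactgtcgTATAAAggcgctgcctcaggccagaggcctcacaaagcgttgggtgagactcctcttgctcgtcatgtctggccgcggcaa
The first shows the octamer and CCAAT, the second CCAAT on both strands with TATAAA and an E2F match, and the third TATAAA close to the start. Where an H2A and an H2B gene start back to back, their windows overlap, so these counts are not independent.

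Clustered histone RNA made up 0.498% and 0.986% of all TPM at 48 h, against 1.59% and 2.09% at 0 h, and 48 h of replicate 1 was the lowest of the 16 libraries. In replicate 1 the summed TPM of the 63 genes was 15923 at 0 h, 13401 at 6 h and 11507 at 12 h. It stood at 15544 at 24 h and 13017 at 36 h, then at 4981 at 48 h, 5745 at 72 h and 13974 at 96 h. In replicate 2 it was 20923 at 0 h, 19237 at 6 h and 14651 at 12 h. There it stood at 8848 at 24 h, 11927 at 36 h and 9863 at 48 h, then at 14286 at 72 h and 14258 at 96 h. Both series were below their 0 h library at every later time, but they were out of step: replicate 1 was near its 0 h sum at 24 h and lowest at 48 and 72 h, and replicate 2 was lowest at 24 h and higher again at 72 h. At 48 h, the time at which both were low, the sum was 0.313 and 0.471 times the 0 h sum of the same replicate. At 96 h it was 0.878 and 0.681 times that sum. In bulk RNA, fewer cells in S phase and less histone RNA per cell cannot be told apart.

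**Figure D1:**
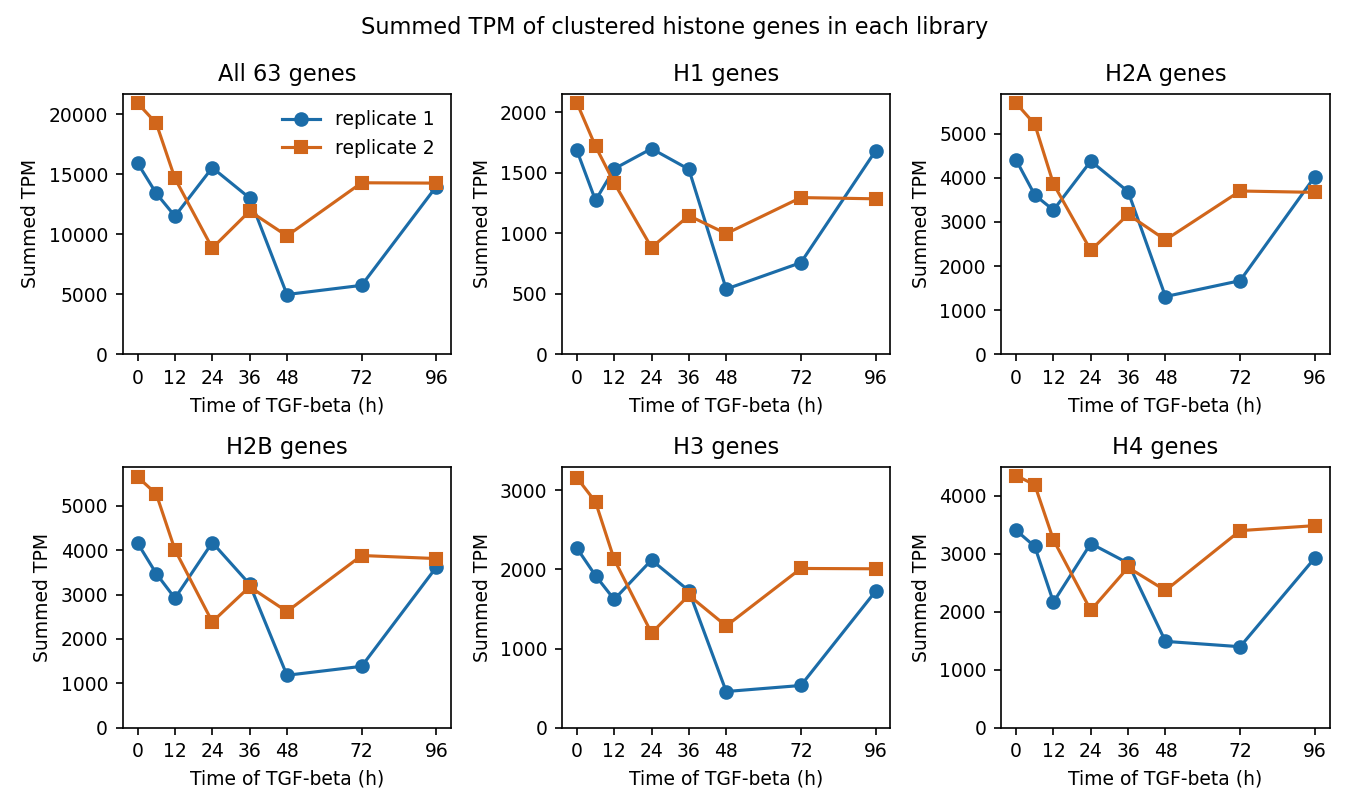
Summed TPM of the clustered histone genes (vertical axes, linear, from 0) in each library against hours of TGF-beta (horizontal axes), for all 63 genes and for each histone class. Circles are replicate 1 and squares replicate 2. Replicate 1 drops to 4981 TPM at 48 h and replicate 2 to 8848 TPM at 24 h, and each class is lowest at 48 or 72 h in replicate 1 and at 24 h in replicate 2.

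Steps between successive times within a series were counted gene by gene. In replicate 1, 42 of the 63 genes were lower at 12 h than at 6 h, beside 7.31% of all genes tested, and 59 were higher at 24 h than at 12 h, beside 14.5%. Later in that series 60 were lower at 48 h than at 36 h, beside 92.1% of all genes, and 61 were higher at 96 h than at 72 h, beside 77.1%. In replicate 2, 61 were lower at 24 h than at 12 h, beside 51.3% of all genes, 55 were higher at 36 h than at 24 h, beside 38.5%, and 57 were higher at 72 h than at 48 h, beside 63.8%. At the step to 48 h in replicate 1 the median difference in log2(TPM + 1) was -1.48 for the histone genes and -0.57 for all genes. Across the 53 genes with at least 5 TPM throughout, the changes from 0 h to 48 h in the 2 series had Pearson's r of 0.76 and Spearman's rho of 0.71, across genes that are not independent of each other.

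**Figure D2:**
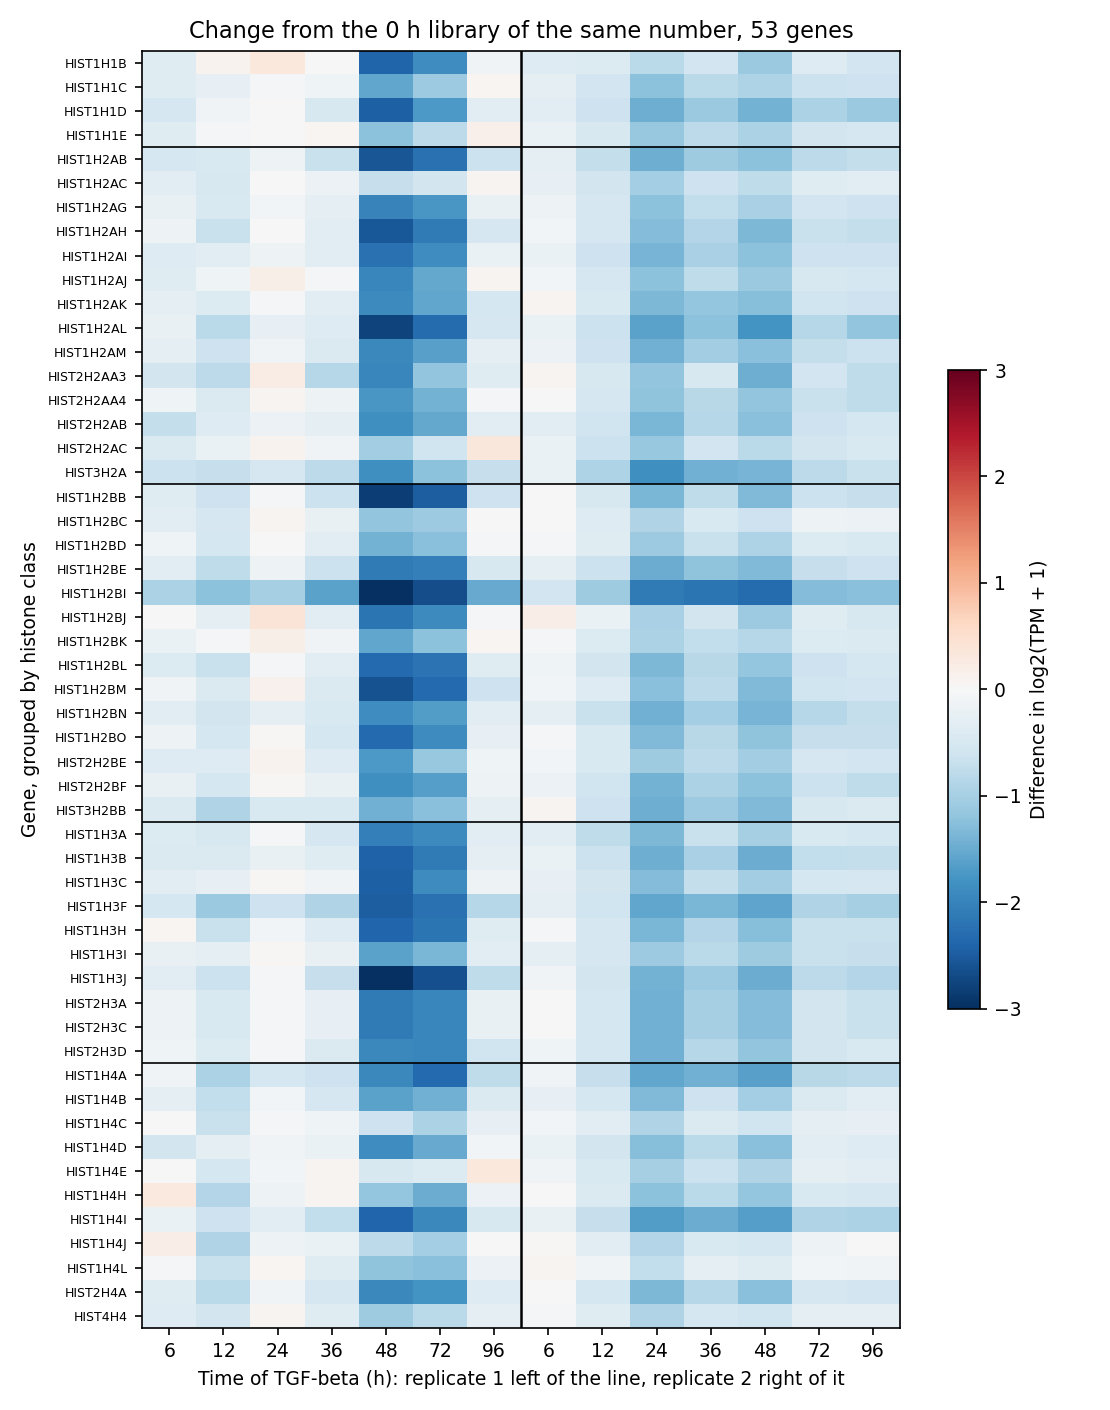
Difference in log2(TPM + 1) from the 0 h library of the same replicate number for the 53 genes with at least 5 TPM in every library. Rows are genes grouped by class from H1 (top) to H4 (bottom), columns are times in hours, replicate 1 left and replicate 2 right, with blue lower and red higher than 0 h and the colour saturated at 3 units. The darkest columns are 48 and 72 h of replicate 1, and in replicate 2 the columns 24 to 48 h are darker than 72 and 96 h.

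Differences from 0 h were tested on log2(TPM + 1) with limma over all 16967 genes, with calls made at an adjusted p below 0.05. At 48 h, 12 of the 63 genes were called, all of them lower, beside 6.8% of all genes called lower. HIST1H2BF and HIST1H3D, which passed the threshold through 0 h alone, were among the 12, and of the other 61 genes 10 were called. All 63 genes had negative log2 fold changes at 48 h, with a median of -1.54 against -0.46 for all genes, so the histone median lay 1.09 log2 units under the median shift of the TPM scale. Both libraries were under both 0 h libraries for 61 of the 63, a separation that 62.3% of all genes also showed. The call count depended on 1 library at a time: without 0 h replicate 1, 0 h replicate 2 or 48 h replicate 1 it was 0 (with 54, 30 and 13 genes at an unadjusted p below 0.05, in that order), without either 6 h library it was 6, without 48 h replicate 2 it was 35, and without either 72 h library it was 36. With TMM scaling, which sets the libraries to a common level across genes, it was 0, beside 2.52% of all genes called lower (smallest limma adjusted p = 0.0533, with 20 genes at an unadjusted p below 0.05). With the replicate number as a block it was 47, beside 14.9% of all genes called lower, and with block and TMM scaling together 8, beside 6.69%. HIST1H2BF was among both the 47 and the 8, and HIST1H3D was among the 47.

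Among H2B genes, whose product pairs with H2A in the nucleosome, lay the largest change. HIST1H2BI had 20.4 and 48.7 TPM at 48 h, against 177 and 246 TPM at 0 h. Over the course its mean of 2 libraries was 212 TPM at 0 h, 128 at 6 h and 96.0 at 12 h. Means of 72.3 at 24 h, 55.5 at 36 h and 34.6 at 48 h followed, then 63.7 at 72 h and 82.3 at 96 h. All 14 later libraries were under both 0 h libraries, and at 36 h the replicates lay close together at 57.7 and 53.3 TPM. Its log2 fold change at 48 h was -2.68 ± 0.56 (SE of the fit, as in all such values below, n = 2 per time; limma adjusted p = 0.0184). With the replicate block it was also called lower at 36 h (log2 fold change -1.89, limma adjusted p = 0.0190) and at 72 h (-1.97, limma adjusted p = 0.0150). HIST3H2BB had 32.9 and 36.8 TPM at 48 h, against 90.7 and 93.7 TPM at 0 h (log2 fold change -1.38 ± 0.35, limma adjusted p = 0.0356). Its replicates at 48 h and at 0 h lay within a few TPM of each other and were far apart as groups. HIST1H2BF was called as well, at 0.36 and 0 TPM at 48 h, against 1.16 and 1.89 TPM at 0 h, but as stated above it could pass the threshold only by being high at 0 h.

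The most abundant H2B genes were not called at 48 h. HIST2H2BF, with the highest mean TPM of the class, had 197 and 502 TPM at 48 h, against 712 and 1186 TPM at 0 h (log2 fold change -1.54 ± 0.55, limma adjusted p = 0.0959; 0.0299 with the replicate block). HIST1H2BD had 224 and 386 TPM at 48 h, against 601 and 735 TPM at 0 h (log2 fold change -1.17 ± 0.38, limma adjusted p = 0.0705; 0.0340 with the block). In both genes the groups did not overlap, as in 62.3% of all genes, but the libraries of each time lay far apart. The H2B genes as a class summed to 1183 and 2618 TPM at 48 h, against 4158 and 5647 TPM at 0 h, and 3 of 19 were called.

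H2A genes gave 4 calls among 14 at 48 h. HIST1H2AI had 120 and 251 TPM at 48 h, against 571 and 587 TPM at 0 h (log2 fold change -1.73 ± 0.47, limma adjusted p = 0.0426), so its 0 h libraries were close to each other and its 48 h libraries differed more. HIST1H2AH had 79.6 and 228 TPM at 48 h, against 471 and 583 TPM at 0 h (log2 fold change -1.95 ± 0.55, limma adjusted p = 0.0484). HIST2H2AB had 58.6 and 111 TPM at 48 h, against 211 and 266 TPM at 0 h (log2 fold change -1.54 ± 0.43, limma adjusted p = 0.0459). HIST3H2A had 11.4 and 16.1 TPM at 48 h, against 43.4 and 43.9 TPM at 0 h (log2 fold change -1.62 ± 0.38, limma adjusted p = 0.0272). HIST3H2A lies back to back with HIST3H2BB, and both passed the test. The most abundant clustered histone gene was the pair of near-identical copies HIST2H2AA3 and HIST2H2AA4, whose sum was 395 and 782 TPM at 48 h, against 1346 and 1769 TPM at 0 h. How reads were split within the pair differed between the series, with HIST2H2AA4 taking 94.7 to 97.1% in replicate 1 and 98.7 to 99.3% in replicate 2, so the copies are not told apart here.

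H3 genes had the lowest share of their 0 h level at 48 h: their summed TPM was 458 and 1285 at 48 h, against 2268 and 3156 at 0 h, which is 0.202 and 0.407 times. Their part of all clustered histone TPM was 9.20% and 13.0% at 48 h, against 14.2% and 15.1% at 0 h. HIST1H3B, the most abundant H3 gene, had 103 and 255 TPM at 48 h, against 557 and 714 TPM at 0 h (log2 fold change -1.96 ± 0.52, limma adjusted p = 0.0409). HIST1H3H had 68.7 and 205 TPM at 48 h, against 359 and 500 TPM at 0 h (log2 fold change -1.83 ± 0.58, limma adjusted p = 0.0700; 0.0260 with the replicate block). HIST1H3D was called at 0.52 and 0 TPM at 48 h, against 1.53 and 2.01 TPM at 0 h, with the same limit as HIST1H2BF. HIST2H3A and HIST2H3C, copies of 1 gene, had the same value in all 16 libraries, so 2 of the 12 H3 entries carry the same data.

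H4 genes had the highest share, with sums of 1492 and 2369 TPM at 48 h, against 3407 and 4352 TPM at 0 h (0.438 and 0.544 times). HIST1H4C had 429 and 434 TPM at 48 h, against 659 and 662 TPM at 0 h, the smallest log2 fold change of the 63 genes at -0.61 (limma adjusted p = 0.171). Its replicates agreed within a few TPM at both times. Its groups did not overlap, a separation that 62.3% of all genes also showed, and with TMM scaling its log2 fold change was -0.07. HIST1H4J with its copy HIST1H4K had 297 and 652 TPM at 48 h, against 532 and 929 TPM at 0 h, so the 48 h library of replicate 2 lay above the 0 h library of replicate 1. In contrast, HIST1H4D had 86.4 and 153 TPM at 48 h, against 319 and 366 TPM at 0 h (log2 fold change -1.56 ± 0.43, limma adjusted p = 0.0452), and HIST1H4I had 5.90 and 15.2 TPM at 48 h, against 34.8 and 49.9 TPM at 0 h (log2 fold change -2.01 ± 0.50, limma adjusted p = 0.0320). H4 genes encode the same protein, and their fold changes at 48 h therefore covered a range from -2.01 to -0.61 among copies of 1 product, leaving out the pairs whose reads could not be split.

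Linker histone H1 genes summed to 540 and 998 TPM at 48 h, against 1687 and 2080 TPM at 0 h. HIST1H1D was the 1 of 5 that was called, at 76.0 and 202 TPM at 48 h, against 422 and 545 TPM at 0 h (log2 fold change -1.94 ± 0.48, limma adjusted p = 0.0311). HIST1H1C, which has the highest mean TPM of the class and is also polyadenylated, had 218 and 443 TPM at 48 h, against 641 and 844 TPM at 0 h (log2 fold change -1.24 ± 0.38, limma adjusted p = 0.0611; 0.0323 with the replicate block). HIST1H1E had 230 and 307 TPM at 48 h, against 537 and 592 TPM at 0 h (log2 fold change -1.08 ± 0.34, limma adjusted p = 0.0664; 0.0364 with the replicate block). In replicate 1 the H1 sum was back at 0.997 times its 0 h value at 96 h, while in replicate 2 it was at 0.618 times.

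**Figure D3:**
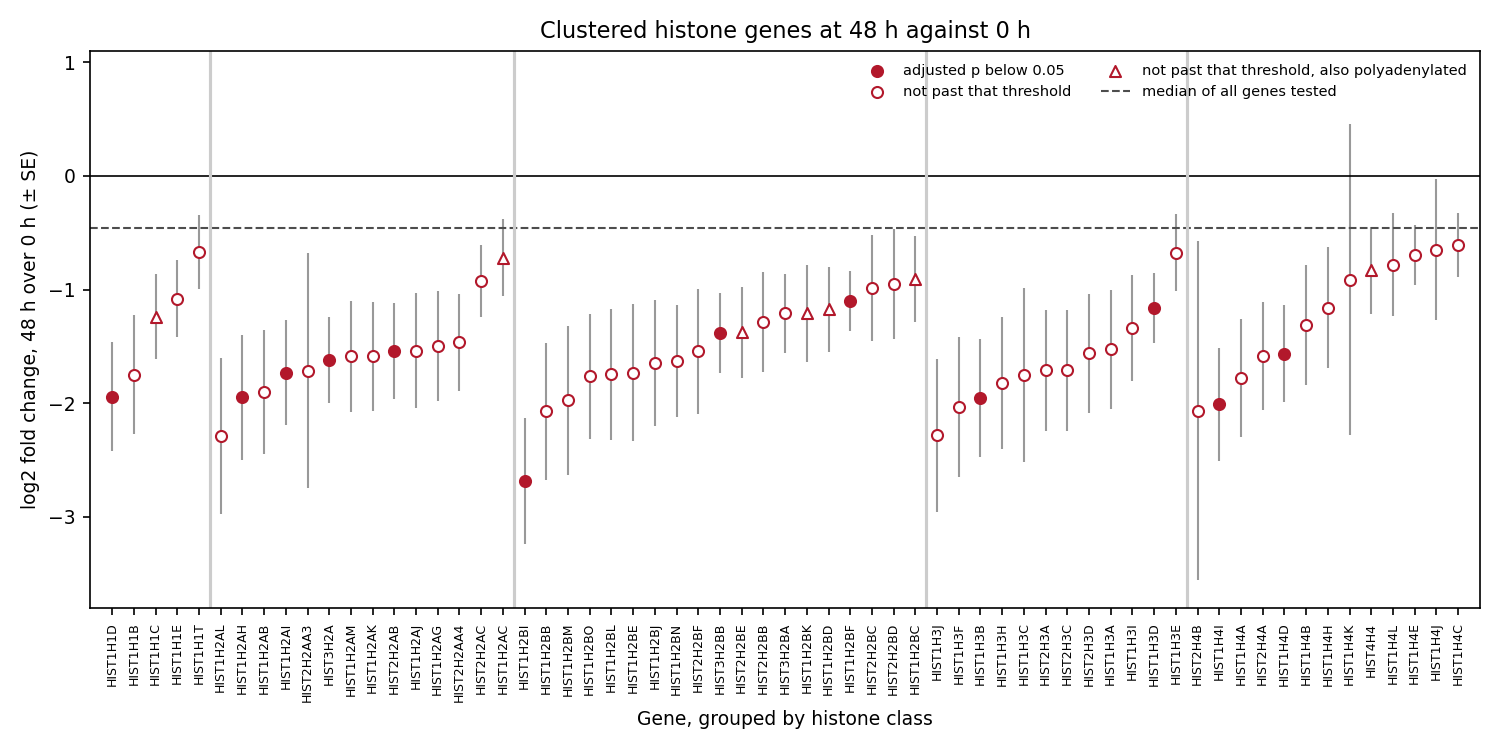
Log2 fold change of each clustered histone gene at 48 h over 0 h (vertical axis, log2(TPM + 1) scale, bars ± SE from limma), ordered within each class. Filled symbols mark the 12 genes with an adjusted p below 0.05, triangles the 7 genes that are also polyadenylated, and the dashed line the median of all genes at -0.46. All 63 points lie below 0 and the triangles lie between -1.38 and -0.72.

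The 7 genes also known to give polyadenylated mRNA had a median log2 fold change of -1.17 at 48 h, beside -1.59 for the other 56 genes and -0.46 for all genes, and 0 of the 7 were called by limma (smallest adjusted p = 0.0554, for HIST2H2BE; 5 of 7 at an unadjusted p below 0.05). With the replicate block 4 of the 7 were called lower, HIST1H1C, HIST1H2BD, HIST1H2BK and HIST2H2BE, beside 14.9% of all genes. Their summed TPM was 0.407 and 0.564 times the 0 h sum at 48 h, whereas the other genes were at 0.293 and 0.453 times. Their part of all clustered histone TPM was therefore 22.9% and 20.0% at 48 h, against 17.6% and 16.7% at 0 h. In both series it was above 0 h also at 12, 24, 36, 72 and 96 h, with 23.6% and 18.5% at 72 h. A rise at 48 h was not particular to this list: the part of the H4 genes was 29.9% and 24.0%, against 21.4% and 20.8% at 0 h. Within the list, HIST1H2AC had 201 and 293 TPM at 48 h, against 324 and 495 TPM at 0 h (log2 fold change -0.72). HIST4H4 had 106 and 107 TPM at 48 h, against 224 and 161 TPM at 0 h (log2 fold change -0.83). HIST1H2BC had 240 and 415 TPM at 48 h, against 548 and 642 TPM at 0 h (log2 fold change -0.91). HIST1H2BK had 108 and 237 TPM at 48 h, against 319 and 431 TPM at 0 h (log2 fold change -1.21; limma adjusted p = 0.0447 with the replicate block). HIST2H2BE had 43.5 and 91.2 TPM at 48 h, against 145 and 188 TPM at 0 h (log2 fold change -1.38; limma adjusted p = 0.0236 with the replicate block). These 5 did not pass the test without the block, and the difference between the 7 genes and the rest was not tested.

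Neighbouring genes that start within 1 kb of each other in opposite directions formed 11 pairs. HIST1H2AI and HIST1H2BL had nearly the same log2 fold change at 48 h, -1.73 and -1.75, as did HIST1H2AC and HIST1H2BC at -0.72 and -0.91. HIST1H2AH and HIST1H2BK differed more, at -1.95 and -1.21, as did HIST1H3J and HIST1H2BO at -2.28 and -1.76. HIST2H2AC and HIST2H2BE stood at -0.92 and -1.38. HIST2H2AA3 and the pseudogene HIST2H2BD, the most unlike of the 11 pairs, stood at -1.72 and -0.95. This pair is a weak example, because HIST2H2AA3 is not told apart from its copy HIST2H2AA4. HIST2H2BD lay near the floor, at 0.54 and 2.16 TPM at 48 h, against 3.67 and 2.89 TPM at 0 h. Whether reads were counted by strand is not given in the sources used here, so values of genes this close may share reads.

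At the other times no clustered histone gene was called in the fit without a block. At 6 h the histone median was 0.13 log2 units above that of all genes, 0 of 63 genes were called (0.0177% of all genes lower), 4 had an unadjusted p below 0.05, and 16 lay wholly under 0 h beside 61.8% of all genes. At 12 h the relative median was -0.54, 0 were called (0.13% of all genes lower), 3 had an unadjusted p below 0.05, and 42 lay wholly under 0 h beside 16.1% of all genes. At 24 h it was -0.53, 0 were called (0.595% of all genes lower), 7 had an unadjusted p below 0.05, and 40 lay wholly under 0 h beside 37.1%. The relative median at 24 h was -0.05 in replicate 1 and -1.03 in replicate 2. At 36 h it was -0.45, 0 were called (1.33% of all genes lower), 10 had an unadjusted p below 0.05, and 52 lay wholly under 0 h beside 33.2%. With the replicate block 5 genes were called lower at 36 h, beside 3.15% of all genes, and they were HIST1H2BI, HIST1H3E, the pseudogene HIST3H2BA, HIST1H2BF and HIST1H3D. HIST1H2BF and HIST1H3D passed the threshold through 0 h alone, so that being lower at 36 h was built into their selection. Apart from HIST1H2BI the 5 are genes at the low end of the range: HIST1H3E had 3.89 and 6.46 TPM at 36 h, against 8.98 and 13.3 TPM at 0 h, and HIST3H2BA had 0.81 and 1.01 TPM at 36 h, against 3.37 and 3.79 TPM at 0 h.

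At 72 h the relative median was -0.97, 0 genes were called (1.74% of all genes lower), 41 had an unadjusted p below 0.05, and 49 lay wholly under 0 h beside 41.5%. The series were far apart at this time, at -1.55 in replicate 1 and -0.34 in replicate 2. With the replicate block 4 genes were called lower, beside 4.22% of all genes: HIST1H2BI, HIST1H3F, HIST1H4A and HIST3H2BA. HIST1H4A had 35.4 and 141 TPM at 72 h, against 181 and 252 TPM at 0 h, and its replicate 1 was far under its replicate 2 at 72 h. Without 72 h replicate 2, 8 were called. At 96 h the relative median was -0.25, 0 were called (1.26% of all genes lower), 3 had an unadjusted p below 0.05, and 41 lay wholly under 0 h beside 31%. Replicate 2 at 96 h stood at -0.13 with TPM as deposited and at 0.02 with TMM scaling, so its direction depended on the scaling. For 72 and 96 h against 24 and 36 h, 0 genes were called (0.1% of all genes) and 1 had an unadjusted p below 0.05. The relative median of that comparison was -0.68 in replicate 1 and 0.56 in replicate 2, in opposite directions. Over the whole course the moderated F test of limma called 0 genes (1.72% of all genes), with 10 at an unadjusted p below 0.05.

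S-phase genes, which encode the machinery that copies DNA, were lower at 48 h as well. Of 44 listed, 31 were called lower at 48 h, beside 6.8% of all genes, and 0 higher, with a median of -1.65 against -0.46 for all genes. With TMM scaling 18 were called lower, beside 2.52% of all genes. MCM2, a subunit of the replicative helicase, and CDC6, which loads it, were called lower at both 48 and 72 h, with log2 fold changes at 48 h of -2.13 and -2.27 (limma adjusted p = 0.0118 and 0.0148). The summed TPM of the list was 0.233 and 0.355 times the 0 h sum at 48 h and 0.526 and 0.402 times at 96 h, where the histone sum stood at 0.878 and 0.681 times. Histone RNA per S-phase RNA, as log2 of the ratio of the sums, was 4.06 and 4.28 at 96 h, against 3.32 and 3.51 at 0 h, so both 96 h libraries were above both 0 h libraries. Both libraries were above both 0 h libraries also at 6 h, with 3.88 and 3.69, at 36 h, with 3.57 and 3.99, and at 48 h, with 3.74 and 3.92. They were not at 12 h (2.86 and 3.72), 24 h (3.53 and 3.35) or 72 h (3.46 and 4.07). Across the 16 libraries the summed histone TPM, on the log2 scale, was related to the median log2(TPM + 1) of the S-phase list with Pearson's r of 0.80 (permutation test, adjusted p = 0.00022) and Spearman's rho of 0.73 (adjusted p = 0.0038). Without the 2 libraries farthest from the median, r was 0.64 (permutation test, adjusted p = 0.0213) and rho was 0.60 (adjusted p = 0.0549). Within replicate 1 r was 0.88 (exact permutation test over 8 libraries, adjusted p = 0.0251) and rho 0.57 (adjusted p = 0.302), and within replicate 2 r was 0.81 (adjusted p = 0.0317, exact) and rho 0.86 (adjusted p = 0.0214, exact). Both measures share the scale of each library and the same times, and the permutations treat the libraries as exchangeable. These p-values therefore cannot tell a link between histone and S-phase RNA from a shared scale or course over time, and such a link was not tested.

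**Figure D4:**
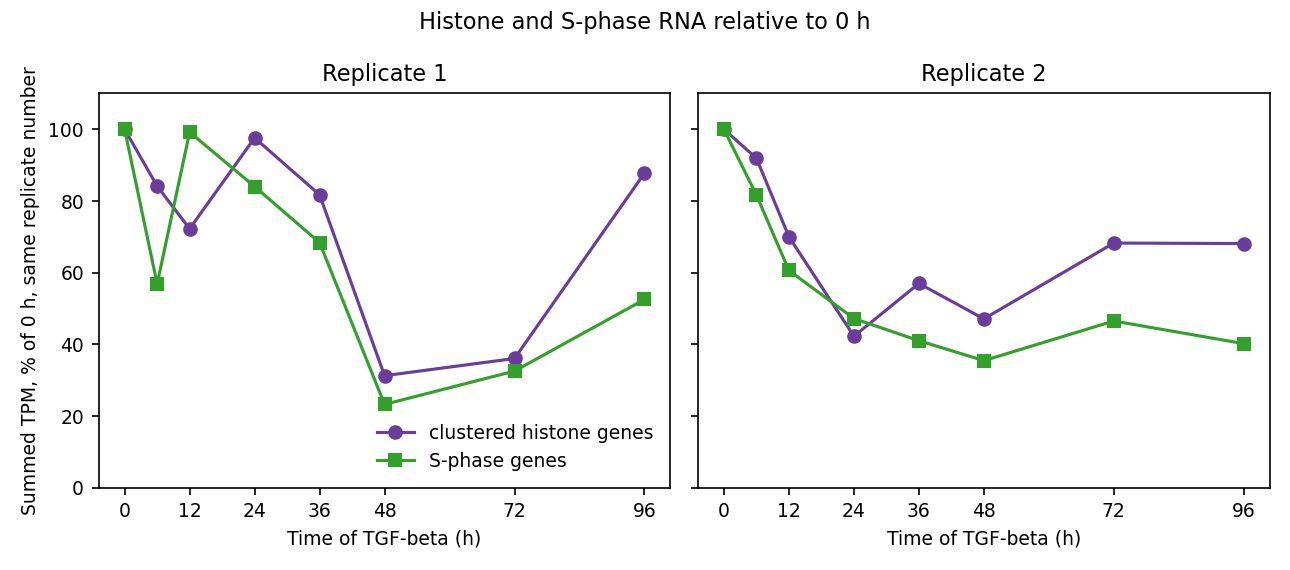
Summed TPM of the 63 clustered histone genes (circles) and of the 44 S-phase genes (squares) as a percentage of the 0 h library of the same replicate number (vertical axis, linear, from 0) against hours of TGF-beta, replicate 1 left and replicate 2 right. Both sums are low at 48 h, and at 96 h the histone sum stands above the S-phase sum in both series.

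Other histone genes, chaperones and the histone mRNA machinery make up the surroundings of histone supply. Of 11 replication-independent and other histone genes not taken by symbol, 4 were called lower at 48 h, beside 6.8% of all genes. They were H2AFX, the variant phosphorylated at DNA breaks, at -2.02 (limma adjusted p = 0.0222), H2AFZ at -0.95, H2AFJ at -0.93 and H2AFV at -0.79. The list mixes both kinds, so it does not stand for replication-independent genes alone. The list had a median of -0.79 against -0.46 for all genes. Of 21 histone chaperone genes, with a median of -0.85, 3 were called lower at 48 h beside 6.8% of all genes, among them ASF1B, a chaperone of H3 and H4, at -1.98 (limma adjusted p = 0.0234) and CHAF1B, a subunit of the chromatin assembly factor at the replication fork, at -1.43 (limma adjusted p = 0.0387). Of 24 genes for histone mRNA processing and transcription, with a median of -0.71, 2 were called lower, again beside 6.8% of all genes: SNRPF at -0.80 and CPSF3, the endonuclease that cuts histone pre-mRNA, at -0.82. With the replicate block 6 of these other histone genes, 12 of the chaperones and 6 of the processing genes were called lower, beside 14.9% of all genes. With TMM scaling limma called 0 genes of these lists at 48 h, with 3 of the other histone genes, 10 of the chaperones and 4 of the processing genes at an unadjusted p below 0.05.

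The scale itself moved between libraries. The share of TPM taken by RMRP, RPPH1, RN7SK and the 3 RN7SL genes, 6 abundant small RNAs, was 64.1% and 60.2% at 48 h, against 51.8% in both libraries at 0 h, and relative to the TPM outside them the histone sum at 48 h was 0.419 and 0.571 times that at 0 h. Across libraries this share and the log2 of the summed histone TPM had Pearson's r of -0.33 (permutation test, adjusted p = 0.214) and Spearman's rho of -0.29 (adjusted p = 0.282). Without the 2 libraries farthest from the median share, r was -0.23, and within replicates 1 and 2 it was -0.51 and -0.52. Mitochondrially encoded RNA was 0.363% and 0.491% of TPM at 48 h, against 0.910% and 0.853% at 0 h. Genes listed at 0 numbered 36116 in 36 h replicate 2 and 36294 in 48 h replicate 2, beside 29278 to 31187 in the other libraries. Epithelial markers passed the threshold in 8 of 8 cases, but at very unlike levels. KRT18 had 659 to 2734 TPM, whereas CDH1 had 0.44 to 27.6, EPCAM 0.74 to 4.52 and MUC1 0.10 to 2.17 TPM. The markers summed to 2323 and 2743 TPM at 48 h, against 4889 and 5859 TPM at 0 h. These sums came almost wholly from KRT7, KRT8 and KRT18, with means of 1352, 1235 and 1519 TPM over the 16 libraries. KRT19, the next highest, had a mean of 18.3 TPM. By contrast, 0 of 4 endothelial and 0 of 4 erythroid markers passed, 2 of 6 fibroblast and 3 of 6 leukocyte markers passed, and summed leukocyte markers were 5.76 and 10.4 TPM at 48 h, against 6.11 and 11.4 TPM at 0 h. The part of these shifts in the histone values was not tested.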

How the data were processed

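RNA of A549 cells was sequenced at 8 times of TGF-beta in 2 libraries each, from total RNA with a TruSeq RNA kit, per the labels' protocols, which do not say whether poly(A) RNA was selected. The 6 abundant small RNAs, listed as RNAs without a poly(A) tail, took 42.5% to 64.1% of TPM in the 16 libraries. Values are TPM per gene, as the authors deposited them; the submitters' processing notes name Bowtie and RSEM with no version. No source used here names a genome build. TPM keep no depth, so no counting errors are given, and genes with identical transcripts are split by the authors' estimation.

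Tables were joined by Ensembl identifier and genes were kept that reached 1 TPM in 2 or more libraries. log2(TPM + 1) was tested with limma 3.58.1 in R 4.3.3 (1 mean per time, all 16 libraries, empirical Bayes with a mean trend, two-sided, Benjamini-Hochberg over 16967 genes), tested on simulated data; such fold changes understate changes of low genes. With 2 libraries per group an exact permutation p is at least 0.333, so none was used. Whether replicates were separate cultures is not in the labels; p-values therefore measure only how these samples spread, possibly for technical reasons.

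Same-numbered libraries deviated together: in 28 of 28 pairs of times the correlation of their deviations was over 0.1 (lowest 0.128, median 0.438). With TMM scaling this held in 27 of 28 (lowest 0.082). The replicate numbers were therefore taken to pair the samples, from the data and not from the labels. The fit without a block, used unless stated otherwise, ignores this pairing, and only the fits with the replicate block use it. Genes named are those called, the 2 with the highest mean TPM of each class and the polyadenylation list, plus genes picked after their values were seen (those just outside the threshold, those called with the block, copies and neighbours). The genes and lists were chosen with earlier results of these data known. Relations used 100000 permutations, or all pairings for 8 libraries, and 2 measures, with libraries treated as exchangeable although they form 2 series over time. Alternatives were TMM scaling (factors computed from the TPM of the genes kept, with trims of 0.3 and 0.05), leaving out the 6 small RNAs, a pseudocount of 0.1, 2 other filters, the replicate block and leaving out libraries.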

Additional observations from a re-analysis of the deposited data

How the results depend on the processing

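The 25 genes named by rule had negative log2 fold changes at 48 h in every setting that kept them. Other named genes and other times were not part of this check. Sizes did change: with TMM scaling they ran from -2.16 for HIST1H2BI to -0.07 ± 0.39 (SE) for HIST1H4C. HIST1H4J stood at -0.11, HIST1H2AC at -0.18 and HIST4H4 at -0.29 with that scaling. Counts of calls were unstable. At 48 h, 12 of 63 genes were called; TMM scaling gave 0, leaving out the 6 small RNAs 3, no filter 2, the replicate block 47 (all 12 among them), and leaving out 48 h replicate 1 with 72 h replicate 1, chosen after seeing the data, 0. Leaving out single libraries gave 0 to 36. At 36 h, with 0 called, TMM scaling gave 1, the replicate block 5, block and TMM scaling 3, the block without the 6 small RNAs (chosen after seeing the data) 4, the pair just named left out 1, and single libraries left out 0 to 1. The 1 gene called at 36 h with TMM scaling was HIST1H2BF, which passed the threshold through 0 h alone. It was also among those called at 36 h with the block, with and without TMM scaling. At 72 h the block gave 4, block and TMM scaling 1, the block without the small RNAs 1, and single libraries 0 to 8. At 24 h each of these 3 block fits gave 1. At 12 h the block with TMM scaling and the block without the small RNAs gave 1 each. Over the whole course each of the 3 block fits gave 2. The cause was not tested. The block changed no count at 6 h, 96 h or for 72 and 96 h against 24 and 36 h.

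At 6 h the relative median of 0.13 was 0.25 with TMM scaling (also with the block), 0.22 without the small RNAs (also with the block), 0.24 with a pseudocount of 0.1, 0.14 with the mean filter and -0.13 with no filter, so its direction depended on the filter; single libraries left out gave -0.045 to 0.31. At 36 h it was -0.59 with no filter and -0.58 without 36 h and 48 h replicate 2, and -0.63 to -0.29 with single libraries left out. At 48 h it was -1.49 without those libraries and -0.65 without 48 h and 72 h replicate 1; single libraries left out gave -1.49 to -0.65. For the other times such ranges were -0.97 to -0.11 at 12 h, -0.87 to -0.22 at 24 h, -1.67 to -0.20 at 72 h, -0.56 to 0.046 at 96 h and -0.41 to 0.31 for 72 and 96 h against 24 and 36 h. Read depth is unknown from TPM.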
